A study of Mus musculus with 6 samples.

Results

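The 32 genes described here encode the selenoproteins of the mouse, the enzymes and factors that make selenocysteine and insert it into them, and 1 receptor that takes up selenoprotein P. They were chosen by gene symbol, with earlier results of these data known, and all 32 were found among the 55446 genes of the authors' deposited table. Of the 32, 24 are selenoproteins and 8 belong to the synthesis and insertion machinery. Sephs2 is counted in both classes, and the receptor gene Lrp8 stands on its own. The authors tested 28 of the 32. Dio2, Dio3, Selenon and Selenov carry a status of not tested in the authors' deposited table, and none of the 32 had the status for excess data. A gene is said to have risen, fallen or been called where its q-value, the p-value adjusted for the number of genes by the authors, was under 0.05 in their deposited table. Of the 28 tested members 6 were called, which is 21.4%, with 2 higher and 4 lower in TMX. Over all 15762 tested genes 12.3% were called, 6.60% higher and 5.70% lower. The members were chosen with this comparison known, so nothing is read from these shares.

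RNA was sequenced from crypts of the ileum, the distal small intestine, of mice at day 3 of tamoxifen. The 3 control libraries came from Adar fl/fl mice, which carry floxed Adar alleles alone, and the other 3 came from Adar iΔgut mice, which carry the same alleles with the VilCreERT2 transgene. Tamoxifen was given to both genotypes, and the villin promoter directs the inducible Cre recombinase to the intestinal epithelium, so other cells of a crypt preparation are not its target. ADAR edits double-stranded RNA by turning adenosines into inosines, and the series concerns its loss in the gut. The mice's age, sex and strain are not stated in the labels. The authors' deposited table holds 1 pooled value per gene for a condition named con and 1 for a condition named TMX. The values are FPKM, fragments per length of transcript and per number of fragments sequenced. No replicate error can be given for any of them, and the depth of the libraries is unknown. The table does not tie these names to genotypes. Since both genotypes had tamoxifen, the control reading of con (Adar fl/fl) and the deleted reading of TMX (Adar iΔgut) rest on elimination. Adar itself was at 19.5 FPKM for con against 52.0 FPKM for TMX (q = 0.0575, authors' deposited table), so it was not lower in TMX. Every direction below is therefore given for the condition labelled TMX.

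Selenocysteine is the amino acid cysteine with selenium in the place of sulfur. It is encoded by UGA, which elsewhere ends translation, and it is inserted where a stem-loop in the transcript, the SECIS element, recruits the binding protein SECISBP2 and the elongation factor EEFSEC with the selenocysteine tRNA. Most selenoproteins whose function is known are redox enzymes with selenocysteine in the active site. In the gut epithelium the glutathione peroxidases GPX1 and GPX2 reduce hydrogen peroxide and organic hydroperoxides, and GPX4 reduces lipid hydroperoxides in membranes.

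The selenoprotein genes differ in how many selenocysteine codons they carry and where. In the GENCODE vM21 annotation of GRCm38, 22 of the 24 selenoprotein genes had 1 selenocysteine codon in the principal transcript, Dio2 had 2 and Selenop had 10. The first of the 10 in Selenop was codon 59 of 380, and the other 9 lay between codons 259 and 377. The lines below give coding sequence from the GENCODE transcripts around the selenocysteine codon, 5′ to 3′, with that codon in capitals as TGA. Selenop is shown at its first and last selenocysteine codons because it had the largest difference between conditions. The glutathione peroxidases are shown because of their shared context, and the others because the authors called them or, for Txnrd1, because the codon lies at the end.
Selenop, codon 59: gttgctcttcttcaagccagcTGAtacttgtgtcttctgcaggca
Selenop, codon 377: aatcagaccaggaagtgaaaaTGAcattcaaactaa
Gpx1, codon 47: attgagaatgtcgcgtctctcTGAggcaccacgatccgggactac
Gpx2, codon 40: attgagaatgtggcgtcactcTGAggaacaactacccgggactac
Gpx3, codon 73: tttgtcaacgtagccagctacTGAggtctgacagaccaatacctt
Gpx4, codon 73: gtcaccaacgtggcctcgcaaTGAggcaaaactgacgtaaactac
Dio1, codon 126: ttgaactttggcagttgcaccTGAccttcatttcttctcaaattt
Selenow, codon 13: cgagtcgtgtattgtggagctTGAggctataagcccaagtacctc
Sephs2, codon 63: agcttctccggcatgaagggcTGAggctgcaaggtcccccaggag
Txnrd1, codon 498: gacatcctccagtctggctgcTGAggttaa

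Over these 45 bases Gpx1 and Gpx2 were identical at 39, whereas Gpx4 matched Gpx1 at 25 and Gpx3 matched Gpx1 at 21. The stretches of Txnrd1 and of the last Selenop codon end at the true stop codon, TAA. In all 3 thioredoxin reductases the selenocysteine codon is followed by a single codon and then the stop. In 8 selenoprotein genes the last selenocysteine codon had 5 or fewer codons after it.

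**Figure D1:**
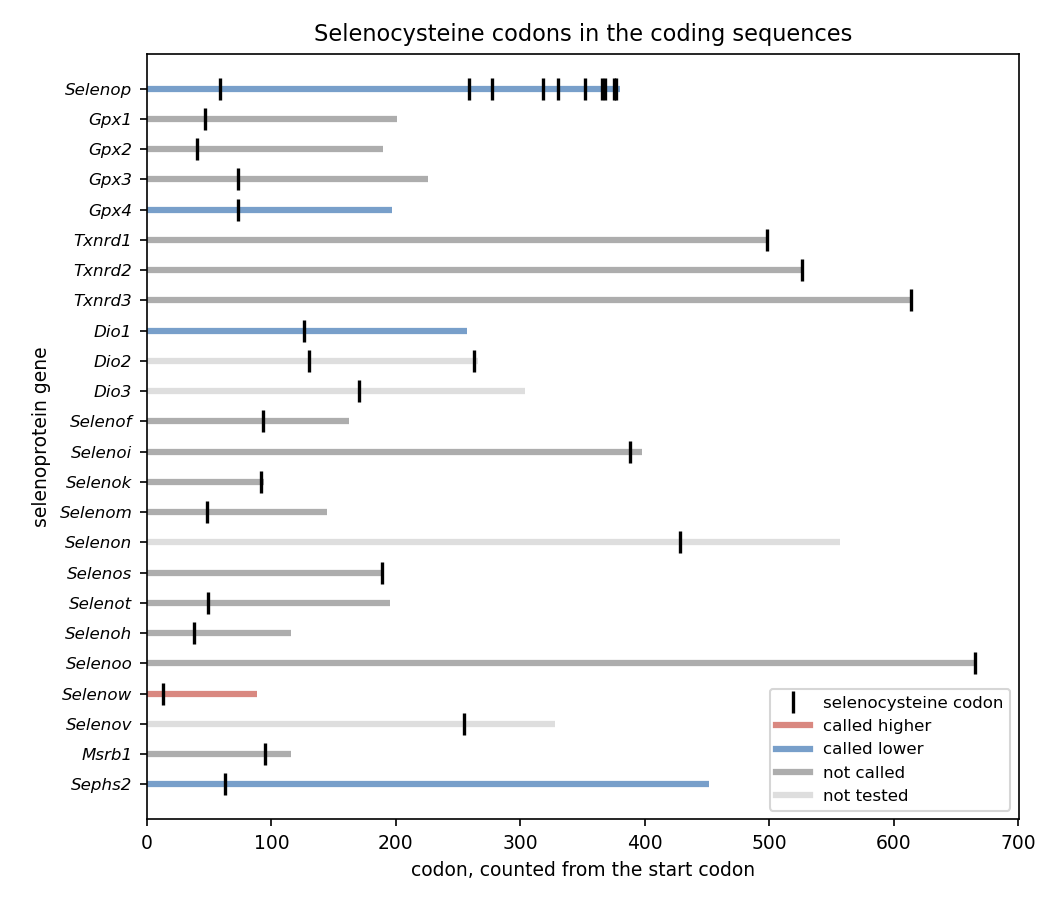
Coding sequences of the 24 selenoprotein genes drawn to scale in codons from the start codon (horizontal axis), with each selenocysteine codon as a black tick and the line coloured by the authors' call in TMX. Selenop carries 10 ticks, 9 of them between codons 259 and 377, and the 3 thioredoxin reductases carry theirs at the end.

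Selenop, which encodes the secreted carrier of selenium, had the highest level in con and the largest fall of the 32 genes. By the authors' deposited table it went from 3791 FPKM in con to 126 FPKM in TMX, which is 30.05-fold lower. The log2 fold change, taken by the authors on FPKM plus 1, was -4.90 (authors' deposited table). The p-value was 5e-05 and the adjusted value, q = 0.00112, is the lowest that the authors' deposited table holds. That lowest p-value is shared by 704 genes, so it does not rank Selenop among them. Only 10 of the 15762 tested genes had a lower log2 fold change. By FPKM Selenop ranked 21st of 55386 genes in con and 465th in TMX. The 60 genes with the status for excess data are left out of all ranks and of the sum over all genes. How those genes would alter a rank is unknown. Selenop (ENSMUSG00000064373.12) lies on the plus strand of GRCm38 chromosome 15, 3268547 to 3280508. The locus that the authors' deposited table gives for it is wider than the gene and also holds Ccdc152, which overlaps it on the opposite strand. Ccdc152 was at 1.08 FPKM for con against 0.209 FPKM for TMX (q = 0.653, authors' deposited table), which is small beside Selenop. In bulk RNA, fewer cells of a type and less RNA per cell cannot be told apart, and markers of enterocytes, the absorptive cells, were mostly lower in TMX too. Of 10 such markers 4 fell and none rose, where 5.70% of all tested genes fell and 6.60% rose. Their summed level went from 21834 to 6638 FPKM, and their median log2 fold change was -1.83. The single values ran from -3.92 to 0.70, and the sum includes markers that were not called. The part of enterocytes in the fall of Selenop was not tested.

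A short stretch of the Selenop promoter is shown because FOXO factors are known to drive this gene in hepatocytes. The last 30 bases before the RefSeq start nearest to the chosen transcript lie at chr15:3270947-3270976 on the plus strand of GRCm38.p6, and capitals mark motif matches.
Selenop promoter: ggcgagGTAAACAacagggcTATAAAagtc

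The first capitals are the FOXO motif GTAAACA, from -24 to -18 relative to the start, and the second are the TATA motif TATAAA, from -10 to -5. The search covered both strands of the 250 bases before the start, and the matches do not overlap. The start used lies 56 bases from the GENCODE start, RefSeq lists 3 starts for the gene, and first exons of other annotated transcripts overlap this window. GTAAACA was found in the same window of 3.17% of 32851 promoters and, among the 31 members with an entry, in Selenop alone. These 32851, called all promoters below, leave out those of a chromosome that holds no member. TATAAA was found in 12.4% of all promoters and in 7 of the 31. The antioxidant response element, searched as TGACNNNGC, was found in 10.2% of all promoters and in 2 of the 31, Selenok and Lrp8. The starts used for them lie 72 and 571 bases from the GENCODE start, and RefSeq lists 3 starts for Lrp8. CCAAT, also searched, was found in 33.8% of all promoters and in 12 of the 31, without Selenop. The HNF4 motif, searched as CAAAGTCCA, was found in 0.384% of all promoters and in 0 of the 31. A match of letters is not a measured binding site.

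Selenop made up most of the selenoprotein transcripts in con and little of them in TMX. Summed over the 24 selenoprotein genes, the level was 5605 FPKM in con, of which Selenop was 67.6%. The same sum was 1712 FPKM in TMX, of which Selenop was 7.37%. Without Selenop the sums were 1813 FPKM in con and 1586 FPKM in TMX, a ratio of 1.14. The sum over all 55386 ranked genes was also lower in TMX, at 539651 FPKM against 626381 FPKM in con. The selenoprotein sums were not rescaled for this, so no fall is read from that ratio. The 4 glutathione peroxidases made up 60.5% of the sum without Selenop in con and 57.3% in TMX. Weighting each gene's FPKM by its number of selenocysteine codons, which is arithmetic on levels and not a measure of translation, Selenop held 95.4% of the weighted sum in con and 44.3% in TMX. These sums carry no error, since each rests on pooled values.

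**Figure D2:**
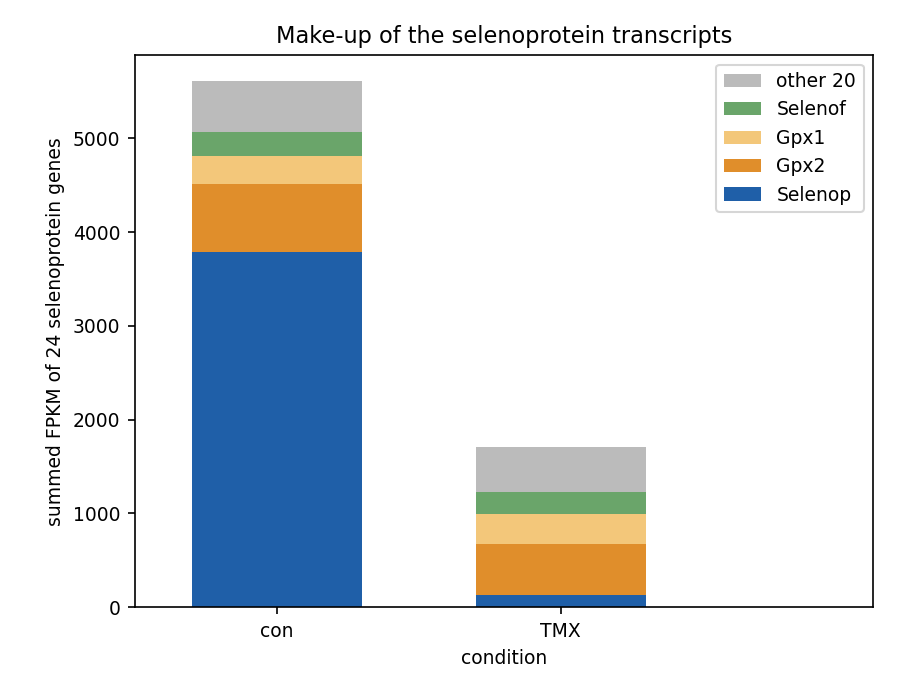
Summed FPKM of the 24 selenoprotein genes (vertical axis) in con and TMX, stacked by gene. The sum went from 5605 FPKM to 1712 FPKM, and the part without Selenop from 1813 FPKM to 1586 FPKM.

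Among the peroxidases, only Gpx4 was called. Gpx4 guards membranes against the iron-dependent cell death called ferroptosis, and it fell from 75.7 to 40.0 FPKM (log2 fold change -0.90, q = 0.0297, authors' deposited table). Gpx2, the peroxidase typical of the gastrointestinal epithelium, was at 717 FPKM for con against 546 FPKM for TMX (q = 0.713, authors' deposited table), and ranked 107th and 108th of the ranked genes. Gpx1, the widely expressed cytosolic enzyme, was at 305 FPKM for con against 322 FPKM for TMX (q = 0.953, authors' deposited table). The order of levels was the same in both conditions, with Gpx2 above Gpx1, Gpx4 and Gpx3. Gpx3, the plasma enzyme made mainly in the kidney, was at 0.913 FPKM for con against 1.86 FPKM for TMX (q = 0.298, authors' deposited table). The locus given for Gpx2 is wider than the gene and holds 4 tested genes.

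None of the 3 thioredoxin reductases was called. Txnrd1, the cytosolic enzyme, was at 55.8 FPKM for con against 68.3 FPKM for TMX (q = 0.714, authors' deposited table). Txnrd2, the mitochondrial enzyme, was at 1.14 against 2.23 FPKM, and Txnrd3, best known from the testis, at 0.733 against 1.05 FPKM by the authors' deposited table. Their log2 fold changes were all above 0, from 0.25 to 0.59, and none had an unadjusted p-value under 0.05. The lowest of their unadjusted p-values was 0.245, for Txnrd2, per the authors' deposited table.

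Of the deiodinases, which activate or inactivate thyroid hormone, Dio1 was the 1 that was tested. It fell from 17.2 to 1.01 FPKM, a ratio of 17.0 (log2 fold change -3.18, q = 0.00112, authors' deposited table). It ranked 4042nd of the ranked genes in con and 13799th in TMX. The enterocyte markers given with Selenop were mostly lower beside it as well, and their part in this fall was not tested. Dio1 (ENSMUSG00000034785.14) lies on the minus strand of GRCm38 chromosome 4, 107291465 to 107307169. Dio2 was at 0.0220 FPKM for con against 0.106 FPKM for TMX, and Dio3 was listed at 0 for con and at 0.0173 FPKM in TMX, per the authors' deposited table.

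The selenoproteins of the endoplasmic reticulum and other membranes had the smallest median absolute log2 fold change, 0.13, of the roles with more than 1 tested member. Of 7 members 6 were tested, none was called, and their log2 fold changes ran from -0.35 to 0.13. None had an unadjusted p-value under 0.05 by the authors' deposited table. Selenof, which partners the glycoprotein-folding sensor UGGT, was at 258 FPKM for con against 234 FPKM for TMX by the authors' deposited table. Selenos, a part of the retrotranslocation machinery for misfolded proteins, was at 72.6 against 71.3 FPKM, and Selenok, a cofactor of protein palmitoylation, at 64.7 against 62.3 FPKM, per the authors' deposited table. Selenot, an oxidoreductase of the reticulum, was at 74.3 against 67.8 FPKM, and Selenoi, which makes phosphatidylethanolamine, at 58.5 against 64.3 FPKM, per the authors' deposited table. Selenom, a thioredoxin-fold protein, was at 15.8 against 12.2 FPKM (q = 0.684, authors' deposited table). Selenon, which acts in calcium handling in muscle, was at 0.0924 against 0.380 FPKM in the authors' deposited table and was not tested.

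Selenow was the 1 selenoprotein called higher in TMX. This small thioredoxin-like protein, known from muscle, rose from 21.4 to 43.4 FPKM (log2 fold change 0.99, q = 0.0222, authors' deposited table). Selenoh, a nuclear thioredoxin-fold protein, was at 6.28 FPKM for con against 12.4 FPKM for TMX, a similar ratio, although uncalled (q = 0.719, authors' deposited table). The locus given for Selenoh is 115110 bases wide against a gene of 1556 bases and holds 5 tested genes. Selenoo, a mitochondrial enzyme that attaches AMP to proteins, was at 8.36 against 4.19 FPKM (q = 0.293, authors' deposited table). Msrb1, which repairs oxidised methionine, was at 15.1 against 10.1 FPKM (q = 0.415, authors' deposited table). Selenov, best known from the testis, was not tested, and the authors' deposited table lists it at 0 for con and at 0.147 FPKM for TMX. Transcripts of Gpx1, Selenow, Selenoh and Msrb1 are known from other studies to fall when selenium is short. In these data their log2 fold changes were 0.08, 0.99, 0.88 and -0.53, of which the value of Selenow was called. These genes were listed after their values were seen, and the part of selenium supply in them was not tested.

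**Figure D3:**
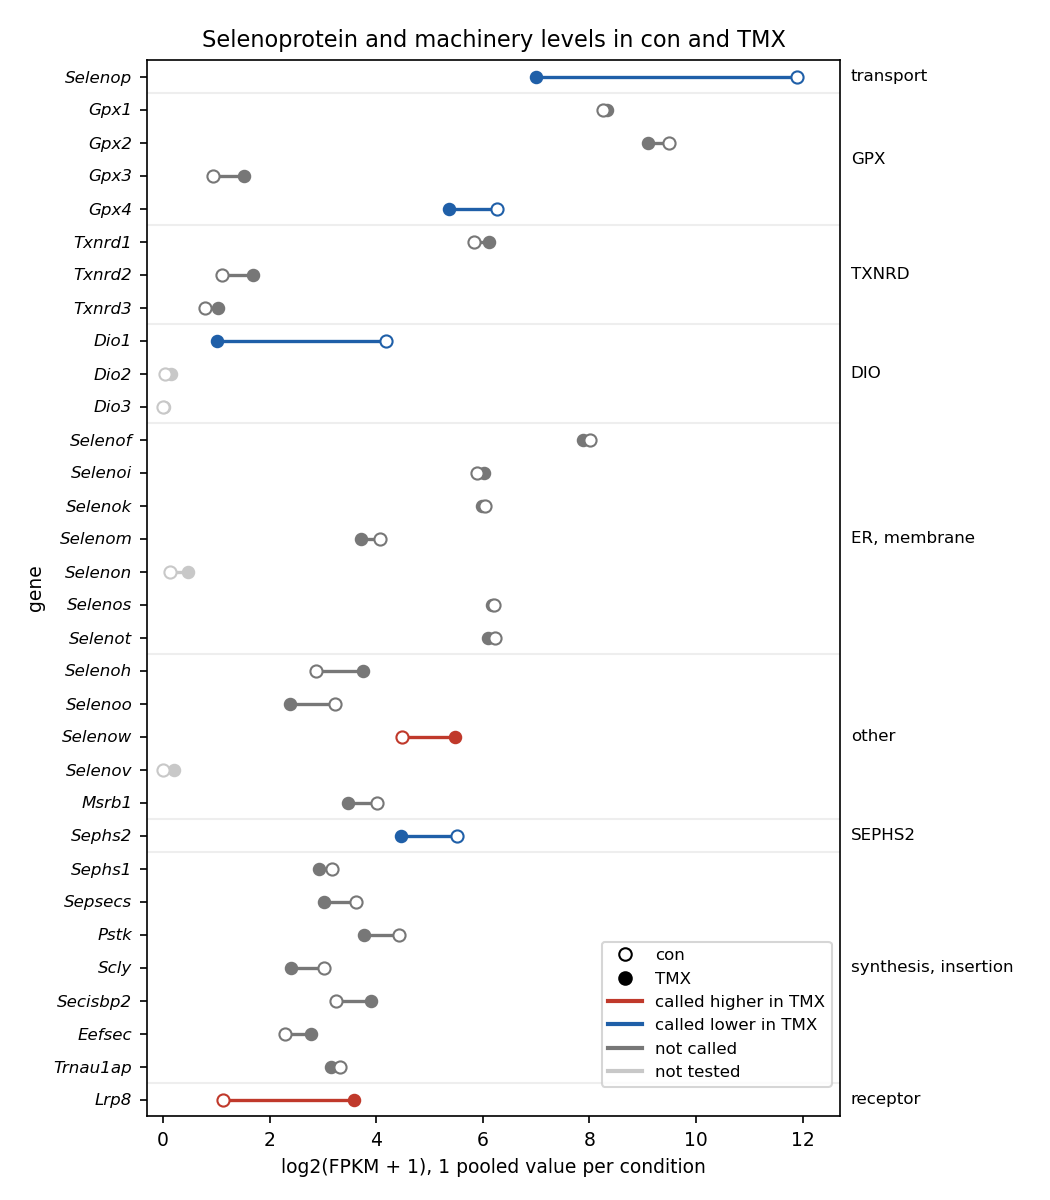
Level of each of the 32 genes on the log2(FPKM + 1) scale (horizontal axis) in con (open circles) and TMX (filled circles), ordered by role and coloured by the authors' call. Selenop and Dio1 show the widest gaps with con on the right, Lrp8 the widest with TMX on the right, and the circles of the reticulum and membrane selenoproteins nearly coincide.

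Of the 8 genes of the synthesis and insertion machinery 1 was called. That gene was Sephs2, which makes the selenium donor selenophosphate and is itself a selenoprotein. It fell from 45.0 to 21.2 FPKM (log2 fold change -1.05, q = 0.00613, authors' deposited table). Its paralog Sephs1, which lacks selenocysteine, was at 7.99 against 6.56 FPKM (q = 0.830, authors' deposited table). The next enzymes act on the selenocysteine tRNA. Pstk, the kinase that phosphorylates its serine, was at 20.5 against 12.6 FPKM (q = 0.670, authors' deposited table). Sepsecs, the synthase that turns phosphoserine on the tRNA into selenocysteine, was at 11.3 against 7.16 FPKM (q = 0.240, authors' deposited table). Pstk sits in a locus of 2961900 bases that holds 26 tested genes, and how reads were divided among them is not stated.

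The remaining machinery genes were not called. Scly, the lyase that frees selenium from selenocysteine, was at 7.10 against 4.26 FPKM (unadjusted p-value of 0.0384, q of 0.184, authors' deposited table). Secisbp2, the SECIS-binding protein, was at 8.52 against 13.9 FPKM (unadjusted p-value of 0.0408, q of 0.191, authors' deposited table). Eefsec, the dedicated elongation factor, was at 3.91 against 5.83 FPKM, and Trnau1ap, which binds the selenocysteine tRNA, at 8.93 against 7.89 FPKM, per the authors' deposited table. Of the 8 machinery genes, Secisbp2 and Eefsec had log2 fold changes above 0, at 0.64 and 0.47, and the other 6 ran from -1.05 for Sephs2 to -0.16 for Trnau1ap.

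Lrp8, also known as ApoER2, takes up selenoprotein P in brain and testis, and it was higher in TMX. It rose from 1.17 to 10.9 FPKM, a ratio of 9.35 (log2 fold change 2.46, q = 0.00112, authors' deposited table). Lrp8 (ENSMUSG00000028613.14) lies on the plus strand of GRCm38 chromosome 4, 107802261 to 107876840. Lrp2, or megalin, which takes up selenoprotein P in the kidney, rose from 0.0767 to 0.657 FPKM (q = 0.0167, authors' deposited table). Lrp2 stayed under 1 FPKM. Both receptor genes were called higher and Selenop was called lower, and a link between these calls was not tested. Markers of myeloid cells and of stroma were mostly higher beside the receptor genes. The myeloid sum went from 29.9 to 437 FPKM and the stromal sum from 11.4 to 110 FPKM, both with uncalled markers included. The part of these cells in the rises of Lrp8 and Lrp2 was not tested.

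Set side by side, 5 of 20 tested selenoproteins and 1 of 8 machinery genes were called, and Sephs2 is in both counts. These shares are 25% and 12.5%, against 12.3% of all tested genes, so the machinery share is near that of all genes. Of the selenoproteins 4 fell (Selenop, Dio1, Sephs2 and Gpx4) and 1 rose (Selenow). At an unadjusted p-value under 0.05, which 22.8% of all tested genes reached, the selenoprotein count was again 5 and the machinery count was 3, with Scly and Secisbp2 added. At a q-value under 0.01, which 7.35% of all tested genes reached, the selenoprotein count was 3, without Gpx4 and Selenow. Without Sephs2 the authors' table called 0 of 7 machinery genes, and 1 was higher and 1 lower at an unadjusted p-value under 0.05.

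The median log2 fold change was -0.09 over the 20 tested selenoproteins and -0.42 over the 8 machinery genes, against 0.05 over all tested genes. The selenoproteins ran from -4.90 to 0.99 and the machinery from -1.05 to 0.64. Of the 20 selenoproteins 10 had a log2 fold change within 0.5 of 0, and of the 8 machinery genes 3 had. The median level of the tested selenoproteins was 50.4 FPKM in con and 41.7 FPKM in TMX, and that of the machinery 8.72 and 7.52 FPKM. The difference between the classes was not tested. Rescaling both conditions to the same sum of FPKM moves the median of all tested genes from 0.05 to 0.23, that of the selenoproteins from -0.09 to 0.12 and that of the machinery from -0.42 to -0.23. Without Sephs2 the machinery median was -0.25. That rescaling changed the sign of 5 members that were not called and of none of the 6 called.

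**Figure D4:**
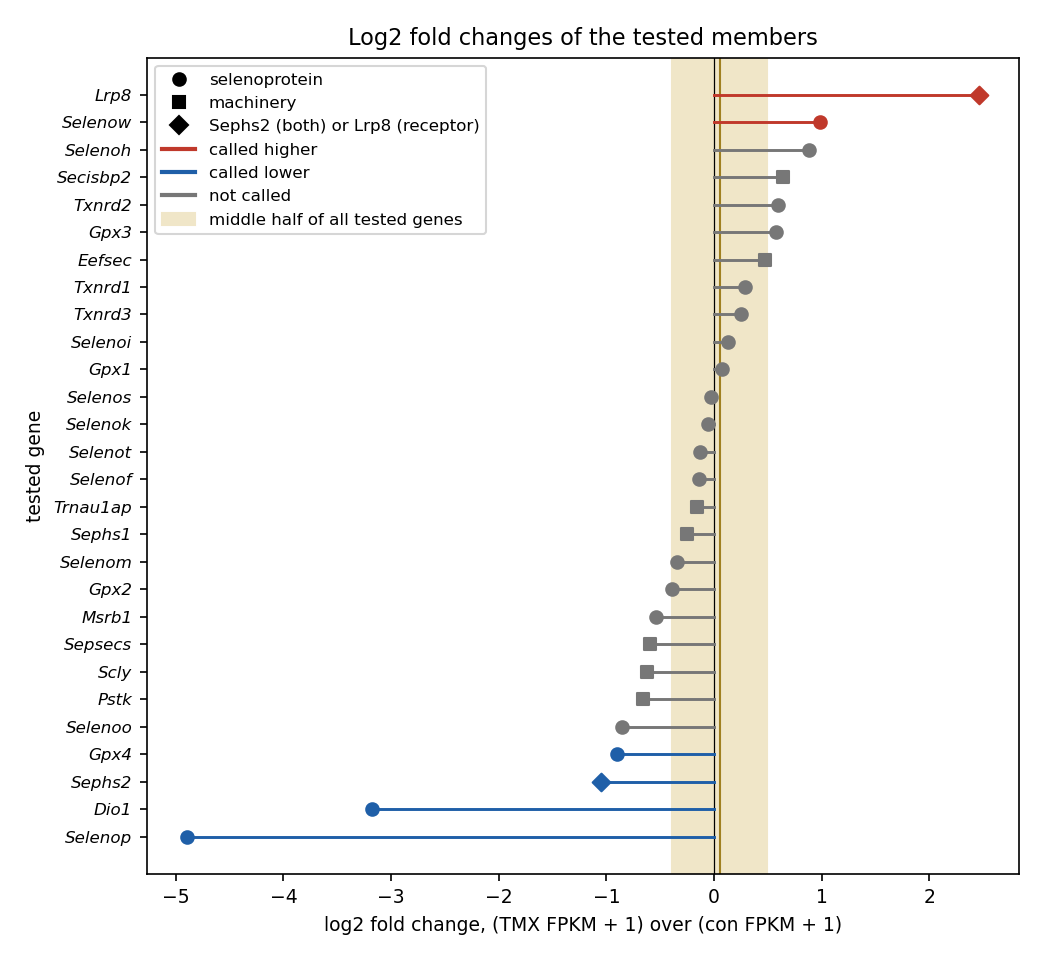
Log2 fold change of each of the 28 tested members (horizontal axis, TMX over con on FPKM plus 1), with the interquartile range of all tested genes shaded and their median of 0.05 as a line. Selenop at -4.90, Dio1 at -3.18 and Lrp8 at 2.46 lie farthest from 0, and the 7 machinery genes other than Sephs2, drawn as squares, lie between -0.66 and 0.64.

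A selenocysteine codon well upstream of the last exon junction can be read as a premature stop, and the transcript is then open to nonsense-mediated decay. With 55 bases as the minimum distance in the chosen transcripts, 11 of the 20 tested selenoproteins had their first selenocysteine codon upstream of that point and 9 did not. The first set held Selenop, the 4 glutathione peroxidases, Dio1, Selenof, Selenom, Selenot, Selenoh and Selenow. In it 4 genes were called, with Selenop, Gpx4 and Dio1 lower in TMX and Selenow higher. The other set held the thioredoxin reductases, Selenoi, Selenok, Selenos, Selenoo, Msrb1 and Sephs2, whose coding transcript has a single exon. In it 1 gene was called, Sephs2, which was lower. Of all tested genes 12.3% were called. The median log2 fold changes were -0.14 and -0.03, with ranges from -4.90 to 0.99 and from -1.05 to 0.59. The split was made after the values were seen, the sets were not tested against each other, and decay was not measured.

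By the authors' deposited table, 2 of 11 tested genes of selenium handling beyond the members rose and 1 fell, with a median log2 fold change of 0.12. Of all tested genes 6.60% rose and 5.70% fell. Besides Lrp2, Ncl, whose product nucleolin binds SECIS elements, rose from 51.4 to 153 FPKM (q = 0.00112, authors' deposited table). Selenbp1, which binds selenium but holds no selenocysteine, fell from 5.19 to 1.98 FPKM (q = 0.0357, authors' deposited table). Sars, the synthetase that first charges the selenocysteine tRNA with serine, was at 47.0 against 84.7 FPKM (q = 0.153, authors' deposited table). Of 5 tested homologues that use cysteine in the place of selenocysteine or act beside them, Msra fell from 27.1 to 6.35 FPKM (q = 0.00112, authors' deposited table), and none rose. The median log2 fold change of these 5 was 0.68, with values from -1.94 to 2.24. Gpx8 was at 0.424 against 5.75 FPKM (q = 0.106, authors' deposited table).

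Partners of the selenoenzymes were mostly lower in value, with 2 of 15 tested called lower and none higher by the authors' deposited table. Among all tested genes 5.70% were called lower and 6.60% higher. Cat, or catalase, fell from 28.1 to 5.22 FPKM, and Glrx, or glutaredoxin, fell from 114 to 27.1 FPKM (q = 0.00112 for both, authors' deposited table). Txn1, the substrate of Txnrd1, was at 392.5 against 234 FPKM (q = 0.136, authors' deposited table). Over these 15 genes the median log2 fold change was -0.61. By the authors' deposited table, 3 of 12 tested genes of ferroptosis outside the selenoproteins rose and none fell, with a median of 0.26. Slc7a11, the cystine importer, rose from 1.03 to 15.8 FPKM and Acsl4, which activates polyunsaturated fatty acids, from 0.941 to 4.88 FPKM (q = 0.00112 for both, authors' deposited table). Gch1, the first enzyme of tetrahydrobiopterin synthesis, rose from 7.51 to 16.7 FPKM (q = 0.00488, authors' deposited table).

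Cell type markers other than those of enterocytes also differed between the conditions. The epithelial markers were present in both, with all 6 between 88.7 and 869 FPKM and none called. Their sum was 2857 FPKM in con and 1651 FPKM in TMX, and their median log2 fold change was -0.84, with all 6 below 0. Of 6 crypt base stem cell markers 2 fell, and the sum went from 367 to 71.9 FPKM. Of 12 myeloid markers 8 rose and none fell, and Ly6g, a granulocyte marker, was listed at 0 for con. Of 9 tested markers of stroma, muscle and endothelium 5 rose and none fell. Of 5 Paneth cell markers 1 rose and 2 fell, of 6 goblet cell markers 2 fell, and of 5 enteroendocrine markers 2 rose. No marker of tuft cells or of B and plasma cells was called, out of 3 and 5 tested. Of 10 T and NK cell markers 4 fell, with sums of 337 and 53.5 FPKM. These counts rest on the calls of the authors' deposited table, in which 6.60% of all tested genes rose and 5.70% fell. The sums include markers that were not called and lean on the genes with the highest levels. The part of these cell types in the values of Gpx4, Sephs2 and Selenow was not tested either.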

How the data were processed

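The data were 1 table of the authors' comparison of con with TMX. The submitters' processing notes name STAR, Cufflinks and GRCm38, without versions or parameters. The authors' columns, per the file headers, are 1 FPKM value per gene and condition, a log2 fold change, a p-value, a q-value and a test statistic, which is a score. The pooling of libraries was the authors'. The deposited log2 fold change equalled that of FPKM plus 1, and Benjamini-Hochberg adjustment of the p-values of the 15762 tested genes gave the deposited q-values. The authors called genes at a q-value under 0.05, and no new test was run. The labels call the 3 libraries of each genotype biological replicates. The labels do not say whether reads kept their strand, so reads of overlapping genes on opposite strands may not be separated. How reads shared with pseudogenes or paralogs were divided is not stated either.

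No value per library was used, so a fit over the 6 libraries, planned for that case, was not made. The members, gene lists and comparisons were chosen with earlier results of these data known. All members are named. From the pathway lists, genes called by the authors are named, at most 5 per list by absolute log2 fold change, cell type markers are given by counts, sums and medians, and Sars, Gpx8 and Txn1 were added after their values were seen, as was the list of transcripts sensitive to selenium. The split by the last exon junction was also made then.

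Identifiers were matched to GENCODE vM21. Selenocysteine codons came from its annotation and were checked to be the only in-frame stop codons before the last codon of each chosen transcript. The choice favoured a transcript with an annotated selenocysteine codon, then a complete coding sequence, and only then one tagged as principal. Promoters came from the RefSeq table for GRCm38.p6, which held 31 of the 32 members. Shares over promoters leave out a chromosome that holds no member. Functions were tested on simulated data. Tables were made with pandas 2.3.3 and numpy 2.4.6 under Python 3.11.15, and figures with matplotlib 3.10.9.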

Additional observations from a re-analysis of the deposited data

How the results depend on the processing

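The 6 called members kept their direction after rescaling to the same FPKM sum and after centring on the median of the tested genes. Those steps shift log2 fold changes by about 0.22 and 0.05. The called value nearest 0 was -0.90, for Gpx4, so neither step could reverse a called member. A pseudocount cannot change a direction at all. With a pseudocount of 0.1 Dio1 went from -3.18 to -3.96 and Lrp8 from 2.46 to 3.12. The selenoprotein count stayed at 5 when p-values were adjusted over protein-coding genes or over genes with a mean of at least 1 FPKM, and it was 4 without Sephs2. At a q-value under 0.01 it was 3, since Gpx4 and Selenow missed that limit. The machinery count was 1 under these settings, 3 at an unadjusted p-value under 0.05 and 0 without Sephs2. For comparison, the adjustment over protein-coding genes called 1920 of all 12516 such genes, which is 15.3%. The adjustment over genes with a mean of at least 1 FPKM called 1724 of 13553. Rescaling moved the median log2 fold change of the selenoproteins from -0.09 to 0.12 and that of the machinery from -0.42 to -0.23. Leaving out Sephs2 put the machinery median at -0.25. No paired analysis was possible because the deposited table holds 1 pooled value per condition, and for the same reason no library could be left out. Sequencing depth is unknown, so how far low depth limits Gpx3, Txnrd2, Txnrd3 and the 4 untested genes cannot be read from these values.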
